A study of Rattus norvegicus with 12 samples.

Results

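The genes described here are 10 rat genes known from mechanically loaded or enlarging heart muscle: Ankrd1, Ankrd23, Csrp3, Myot, Xirp2, Fhl1, Fhl2, Rcan1, Tnfrsf12a and Uchl1. They were chosen by name, with earlier results of these data known. Every array probe whose target matched one of these symbols was used. Among the 11211 genes with a tested probe these were 10, read by 12 of the 30367 probes of the array, 1 for each of 8 genes and 2 each for Fhl1 and Rcan1. All 12 were among the 20020 probes that passed the background filter, and each was well above background and unsaturated on 12 of 12 arrays.

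RNA from whole left ventricles of male Sprague-Dawley rats was hybridised to one-colour (Cy3) Agilent arrays, 3 per group in 4 groups. Every rat, controls included, ate 60% fructose for 8 weeks, a diet used to model metabolic syndrome. The groups were low sodium with AngII (below 0.01% NaCl, with angiotensin II infused under the skin at 200 ng/kg/min over the last 4 weeks), normal sodium with AngII (0.64% NaCl, same infusion), low sodium (below 0.01% NaCl, no infusion) and normal sodium (0.64% NaCl, no infusion). Age and any pooling of rats are not given in the sources used here, so p-values measure the spread between these arrays.

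Heart muscle senses stretch largely at the Z-disc and along titin, the elastic filament that runs from the Z-disc into the sarcomere. Ankyrin-repeat and LIM proteins dock there and can carry the signal to the nucleus, while calcium entry activates calcineurin, a phosphatase that sends NFAT transcription factors to the nucleus. Angiotensin II raises blood pressure, and so the load on the ventricle, and also acts on heart cells through its own receptor.

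Promoter sequences of 7 of the 10 genes, all but Ankrd1, Myot and Csrp3, were read from RefSeq (assembly GRCr8, 9 windows of 250 bases up to the annotated start). Those of Rcan1, Tnfrsf12a and Ankrd23 are shown because the diet comparison below turns on these genes, and that of Xirp2 as a further muscle gene. Between low and normal sodium with AngII the groups of Rcan1 and Tnfrsf12a did not overlap, while those of Ankrd23 and Xirp2 did. Ankrd1 and Csrp3, whose groups did not overlap either, have no window here. The windows shown are therefore not a contrast of separated with overlapping genes. Capitals mark matches, on either strand, to M-CAT (letters CATTCC), AP-1 (letters TGANTCA), the GATA factor motif (letters AGATAA), NFAT (letters GGAAAA), CRE (letters TGACGT) and a MEF2 pattern, and each sequence reads 5′ to 3′ on the gene's strand.
Rcan1, chr11:45118237-45118486, minus strand: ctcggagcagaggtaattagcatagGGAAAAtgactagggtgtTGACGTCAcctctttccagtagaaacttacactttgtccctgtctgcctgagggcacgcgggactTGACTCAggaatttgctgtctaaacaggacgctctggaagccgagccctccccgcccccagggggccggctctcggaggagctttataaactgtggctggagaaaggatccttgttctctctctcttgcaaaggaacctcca
Tnfrsf12a, chr10:13213649-13213898, minus strand: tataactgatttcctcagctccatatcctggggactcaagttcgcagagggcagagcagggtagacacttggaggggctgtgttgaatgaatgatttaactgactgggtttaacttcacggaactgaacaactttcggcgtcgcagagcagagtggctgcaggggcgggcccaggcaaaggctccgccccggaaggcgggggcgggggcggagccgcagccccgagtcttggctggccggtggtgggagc
Ankrd23, chr9:46274511-46274760, minus strand: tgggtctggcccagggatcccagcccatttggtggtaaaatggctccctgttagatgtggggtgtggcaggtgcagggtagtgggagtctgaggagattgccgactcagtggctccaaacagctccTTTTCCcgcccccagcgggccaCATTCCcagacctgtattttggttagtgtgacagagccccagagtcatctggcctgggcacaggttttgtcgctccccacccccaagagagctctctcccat
Xirp2, chr3:72533936-72534185, plus strand: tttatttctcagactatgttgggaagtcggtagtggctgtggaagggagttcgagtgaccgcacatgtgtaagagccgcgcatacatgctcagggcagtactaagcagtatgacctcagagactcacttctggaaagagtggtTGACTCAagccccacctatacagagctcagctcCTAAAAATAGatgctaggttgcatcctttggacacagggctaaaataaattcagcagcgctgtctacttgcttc

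The Rcan1 window held an NFAT match starting at -225 from the gene start, 2 overlapping CRE matches on opposite strands starting at -207 and -205, and an AP-1 match starting at -142. Ankrd23 had an M-CAT match starting at -102 and an NFAT match on the other strand starting at -124. Xirp2 had an AP-1 match starting at -107 and a MEF2 match starting at -74. No such match lay in the Tnfrsf12a window, in the Uchl1 window or in either Fhl1 window. Fhl2 has 2 annotated starts, the first with a CRE match and the second with an M-CAT and a GATA match. Of 33469 rat promoter windows of this length, 21.6% held the NFAT letters, 12.1% M-CAT, 10.3% GATA, 6.95% CRE, 6.34% AP-1 and 3.41% MEF2. A loose CArG pattern, present in 65.1% of windows, was searched but not marked. A match is a run of letters and not a shown binding site.

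The tissue label was checked against marker genes. All 7 ventricular markers were measured, and the cardiac troponin gene Tnni3, the ventricular light chain Myl2 and the transcription factor Irx4 were well above background on 12 arrays. Of 5 atrial markers 4 passed the filter. Bmp10 was well above background on 0 arrays, while the light chain Myl4 was well above background on 12, at a processed signal of 163224 to 244886 intensity units. The signal of Sln varied between 211 and 8481 units and that of Myl7 between 113 and 2040, and the atrial peptide Nppa is given with the hypertrophy genes. Of the adult skeletal myosins, Myh1 was well above background on 0 arrays, Myh2 on 6 and Myh4 on 12, the last at 25.3 to 61.7 units. Actn3 was so on 8 arrays. In all, 6 of 9 skeletal muscle markers passed the filter, which bears on Myot, Ankrd23 and Xirp2, genes of both muscle types. The 75th percentile of an array's signal lay between 1399 and 1988 units, the local background between 20 and 29.5, and no spot was saturated. The normal sodium array of replicate 1 stood apart: it had 88 non-uniform spots where no other array had over 3, and its array weight (0.279) was the lowest of the 12.

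Levels are given as log2 of the signal relative to the 75th percentile of the array, so a value of 0 equals that percentile, and they are compared only within a probe. No member passed an adjusted p of 0.05 in any comparison, and neither did any other probe: limma called 0 of 20020 (0%) in each of the 7 contrasts. All differences below are therefore given as values. Errors of levels are SDs over 3 arrays and errors of differences are limma standard errors.

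Of the low sodium with AngII arrays, 2 lay below the members' own means on median, while the 3 normal sodium with AngII arrays lay above them. The median over the 10 genes of the deviation from each gene's own mean over 12 arrays was 0.16, -0.27 and -0.21 on the low sodium with AngII arrays and 0.47, 0.32 and 0.05 on the normal sodium with AngII arrays. Without infusion it was -0.14, 0.07 and -0.06 on low sodium and -0.32, 0.20 and -0.19 on normal sodium. On low sodium with AngII replicate 2, 0 of 10 genes lay above their own mean, against 9 of 10 on normal sodium with AngII replicate 1. Single arrays differed as much as groups did, since 9 of 10 genes were above their mean on normal sodium replicate 2 and 2 of 10 on each of the other normal sodium arrays.

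**Figure D1:**
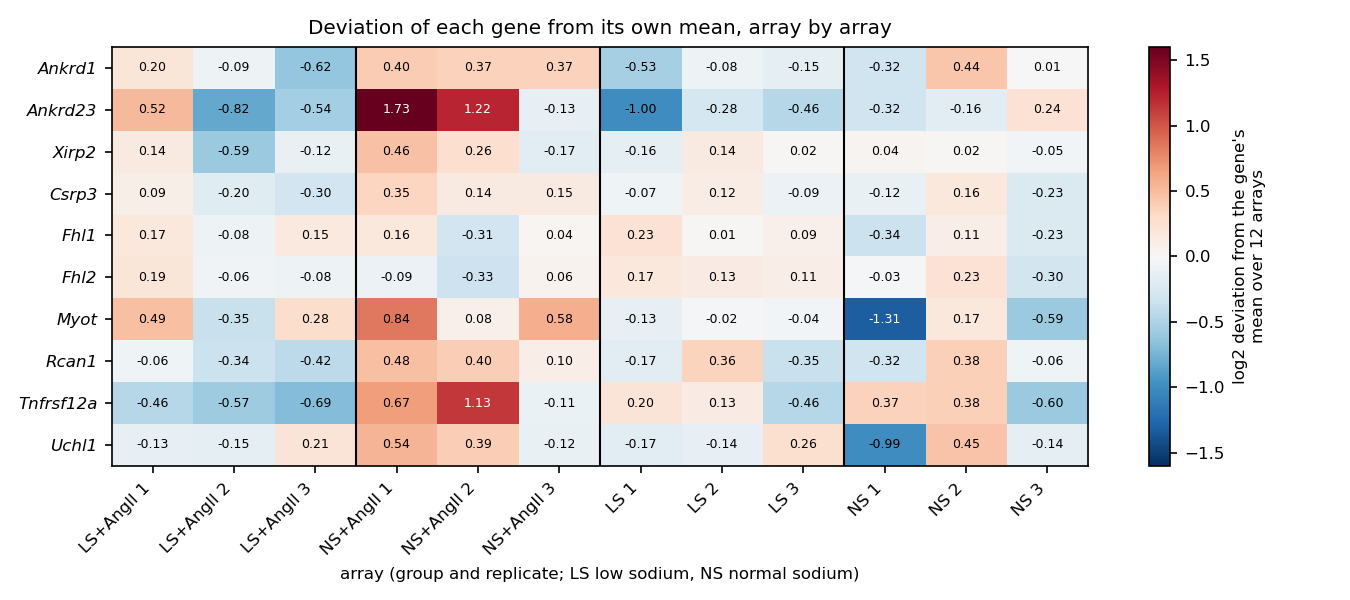
Deviation of each gene (its brightest probe) from its own mean over 12 arrays, in log2 units, with 1 column per array and 1 row per gene; red is above and blue below the mean. Normal sodium with AngII replicate 1 has 9 of 10 genes above the mean and low sodium with AngII replicate 2 has 0 of 10.

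The comparison of low with normal sodium in infused rats asked what salt restriction does to the ventricle under AngII. Values were lower on low sodium for 8 of 10 genes, with a median log2 difference of -0.37 against -0.05 over all probes tested, 58.2% of which lay below 0. With median scaling the value over all probes was 0.05, a shift of 0.10, and the members' differences are to be read against it. In 4 of 10 genes (Ankrd1, Rcan1, Tnfrsf12a and Csrp3) every low sodium with AngII array lay below every normal sodium with AngII array, where 12.3% of all probes did so, and in 0 of 10 above, against 9.92% of all probes. An unadjusted p under 0.05 with a lower value was found for those 4 and Ankrd23, that is 5 of 10, against 7.41% of all probes (1483 of 20020). In whole tissue, fewer cells of a type and less RNA per cell cannot be told apart.

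Among the ankyrin-repeat proteins that bind titin's elastic region, Ankrd1 also acts in the nucleus as a transcriptional cofactor. It stood at 6.29, 6.003 and 5.47 on low sodium with AngII, at 6.49, 6.46 and 6.46 on normal sodium with AngII, at 5.56, 6.01 and 5.94 on low sodium and at 5.77, 6.53 and 6.10 on normal sodium. The 3 normal sodium with AngII arrays lay close together (6.47 ± 0.019) above all low sodium with AngII arrays (5.92 ± 0.42), and the highest value of all was on an uninfused normal sodium array. The difference between the infused diets was -0.55 ± 0.23 (adjusted p = 0.425). It was -0.20, -0.46 and -0.99 on slides 1, 2 and 3, and -0.32 without low sodium with AngII replicate 3. Infusion on normal sodium gave 0.34 ± 0.23 (adjusted p = 0.717), or 0.16 when replicate 1 of the uninfused normal sodium group was left out and 0.54 when its replicate 2 was.

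Ankrd23, a relative of Ankrd1 also called diabetes-related ankyrin repeat protein, had the widest spread among members. Its levels were -0.29, -1.63 and -1.35 on low sodium with AngII and 0.92, 0.41 and -0.94 on normal sodium with AngII, so the infused groups overlapped through normal sodium with AngII replicate 3. Uninfused rats had -1.81, -1.09 and -1.27 on low sodium and -1.13, -0.97 and -0.57 on normal sodium. Low sodium with AngII was below normal sodium with AngII by -1.22 ± 0.46 (a ratio of 0.428, adjusted p = 0.382), and by -1.22, -2.04 and -0.41 on the slides. AngII on normal sodium gave 1.02 ± 0.46 (ratio 2.03, adjusted p = 0.669), which is 0.63 without normal sodium with AngII replicate 1 and 1.56 without replicate 3 of that group. The slide values of this infusion difference were 2.05, 1.39 and -0.37, so slide 3 pointed the other way.

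Among the proteins of the Z-disc and of cell junctions, Csrp3 (muscle LIM protein) is a Z-disc component linked to inherited cardiomyopathy. It was measured at 6.10, 5.81 and 5.70 on low sodium with AngII, 6.35, 6.15 and 6.16 on normal sodium with AngII, 5.94, 6.13 and 5.92 on low sodium and 5.88, 6.17 and 5.78 on normal sodium. The infused groups did not overlap, although the gap between their nearest arrays was small. The diet difference in infused rats was -0.35 ± 0.14 (ratio 0.785, adjusted p = 0.419) and had the same sign on all 3 slides (-0.25, -0.34 and -0.45). AngII on normal sodium gave 0.27 ± 0.14 (adjusted p = 0.672), or 0.14 after normexp background correction.

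Myot encodes myotilin, which crosslinks actin at the Z-disc, and was measured at a low signal of 122 to 701 units. Its levels were -1.72, -2.56 and -1.93 on low sodium with AngII, -1.37, -2.13 and -1.63 on normal sodium with AngII, -2.34, -2.23 and -2.25 on low sodium and -3.52, -2.04 and -2.80 on normal sodium. The lowest value was on normal sodium replicate 1, the array with the non-uniform spots. AngII on normal sodium gave 1.08 ± 0.35 (ratio 2.12, adjusted p = 0.669). Its unadjusted p in the limma fit was 0.00994, and no other member was under 0.05 there, though Ankrd23 was at 0.05003. Without normal sodium replicate 1 it was 0.72, and on the slides it was 2.16, -0.09 and 1.18. The diet difference in infused rats was -0.37 ± 0.35 (adjusted p = 0.720): it was -0.12 without low sodium with AngII replicate 2, -0.20 without normal sodium with AngII replicate 1, -0.58 without replicate 2 of that group and -0.66 with array weights.

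Xirp2, an actin-binding protein of the intercalated discs that join heart muscle cells, overlapped in every comparison. It had 1.03, 0.30 and 0.77 on low sodium with AngII, 1.36, 1.16 and 0.73 on normal sodium with AngII, 0.74, 1.03 and 0.91 on low sodium and 0.94, 0.91 and 0.85 on normal sodium. The difference between the infused diets was -0.38 ± 0.20 (adjusted p = 0.514), with slide 3 at 0.04 against -0.32 and -0.86 on the others. It was -0.18 without low sodium with AngII replicate 2, -0.24 without normal sodium with AngII replicate 1 and -0.61 with array weights.

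The LIM-only proteins Fhl1 and Fhl2, which bind titin, were the 2 genes above 0 in the diet comparison under AngII. Fhl2, which in mice restrains hypertrophic signalling, had 6.04, 5.79 and 5.77 on low sodium with AngII, 5.76, 5.52 and 5.91 on normal sodium with AngII, 6.02, 5.98 and 5.96 on low sodium and 5.82, 6.08 and 5.55 on normal sodium. Its groups overlapped in every comparison, and the diet difference in infused rats was 0.14 ± 0.15 (adjusted p = 0.765, 95% interval -0.20 to 0.48). Fhl1, which in mice takes part in the response to pressure overload, had a brighter probe printed 10 times (A_42_P476474) and a dimmer one (A_44_P482325). The array annotation names a different RefSeq target for each. The brighter gave 3.81, 3.55 and 3.79 on low sodium with AngII, 3.80, 3.32 and 3.67 on normal sodium with AngII, 3.87, 3.65 and 3.72 on low sodium and 3.29, 3.75 and 3.40 on normal sodium. The probes of Fhl1 disagreed in sign between the infused diets, at 0.12 ± 0.16 for the brighter (adjusted p = 0.817) and -0.16 ± 0.16 for the dimmer (adjusted p = 0.732). On normal sodium the dimmer probe read 0.64, 0.63 and 0.56 with AngII and 0.18, 0.55 and 0.22 without. Those groups did not overlap, while those of the brighter probe did, and the fitted differences were 0.30 ± 0.16 (adjusted p = 0.673; 0.18 after normexp) and 0.12 ± 0.16 (adjusted p = 0.872).

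Rcan1 binds and inhibits calcineurin, and one of its transcripts is itself induced by NFAT, which makes it a common readout of calcineurin activity. The brighter of its probes (A_64_P116600) read 4.91, 4.63 and 4.55 on low sodium with AngII, 5.45, 5.37 and 5.08 on normal sodium with AngII, 4.81, 5.33 and 4.62 on low sodium and 4.65, 5.36 and 4.91 on normal sodium. The dimmer (A_64_P116606) read -1.37, -1.96 and -1.93 on low sodium with AngII, -0.81, -0.96 and -1.19 on normal sodium with AngII, -1.84, -1.14 and -1.93 on low sodium and -0.59, -1.12 and -1.27 on normal sodium. With both probes, every low sodium with AngII array was below every normal sodium with AngII array. The diet difference in infused rats was -0.60 ± 0.22 with the brighter probe (ratio 0.659, adjusted p = 0.376) and -0.77 ± 0.26 with the dimmer (ratio 0.588, adjusted p = 0.342). The slides gave -0.54, -0.74 and -0.53 with the brighter probe and -0.56, -1.002 and -0.74 with the dimmer. The array annotation names the same RefSeq target for both Rcan1 probes. Which transcripts each probe detects was not analysed here.

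Without infusion the Rcan1 probes differed in size. Low minus normal sodium was -0.65 ± 0.26 with the dimmer probe (adjusted p = 0.664; -0.33 both after normexp and in the authors' matrix), while the brighter probe spanned 4.62 to 5.33 on low sodium and 4.65 to 5.36 on normal sodium. AngII on normal sodium gave 0.33 ± 0.22 with the brighter probe (adjusted p = 0.712) and 0.01 ± 0.26 with the dimmer (adjusted p = 0.995). Leaving out replicate 1 of the uninfused normal sodium arrays gave 0.17 with the brighter probe, and leaving out their replicate 2 gave 0.52.

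Tnfrsf12a encodes Fn14, the receptor for the cytokine TWEAK. Its levels were 0.000169, -0.11 and -0.23 on low sodium with AngII, 1.13, 1.59 and 0.35 on normal sodium with AngII, 0.66, 0.59 and 0.000991 on low sodium and 0.83, 0.84 and -0.14 on normal sodium. All low sodium with AngII arrays were below all normal sodium with AngII arrays, and replicate 3 was the lowest array of every group. The diet difference in infused rats was -1.14 ± 0.34 (ratio 0.454, unadjusted p = 0.00658, adjusted p = 0.302), the smallest p among the members. On the slides it was -1.13, -1.70 and -0.58, and leaving out single arrays moved it between -1.48 and -0.85.

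The AngII difference of Tnfrsf12a had opposite signs on the 2 diets. On low sodium the infusion difference was -0.53 ± 0.34 (adjusted p = 1.00), with -0.66, -0.70 and -0.23 on the slides. On normal sodium it was 0.52 ± 0.34 (adjusted p = 0.702), with 0.30, 0.76 and 0.49 on the slides. The normal sodium value was 0.32 after normexp, 0.19 without the uninfused replicate 3, and 0.23 or 0.85 without the infused replicate 2 or 3. The difference between the diets, tested as an interaction, was -1.05 ± 0.48 (unadjusted p = 0.0518, adjusted p = 0.857). The infused and uninfused low sodium groups did not overlap, but their nearest arrays, at 0.000169 and 0.000991, were practically equal.

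Uchl1, a ubiquitin hydrolase abundant in neurons, was measured at a low signal of 59.4 to 222 units. It stood at -3.70, -3.72 and -3.36 on low sodium with AngII, -3.03, -3.18 and -3.68 on normal sodium with AngII, -3.74, -3.70 and -3.31 on low sodium and -4.56, -3.11 and -3.71 on normal sodium. As for Myot, the lowest value was on normal sodium replicate 1. The diet difference in infused rats was -0.30 ± 0.32 (adjusted p = 0.756; -0.16 without normal sodium with AngII replicate 1 and -0.49 without its replicate 3; -0.19 with median scaling and -0.13 in the authors' matrix). AngII on normal sodium gave 0.50 ± 0.32 (adjusted p = 0.694), and this was 0.31 after normexp, 0.12 when replicate 1 of the uninfused normal sodium arrays was left out and 0.84 when their replicate 2 was. Nerve and Schwann cell markers passed the filter for 9 of 11 genes, with the sympathetic genes Th and Dbh well above background on 12 arrays. Their mean log2 level ranged from -4.16 to -3.38 on low sodium with AngII, -3.78 to -3.32 on normal sodium with AngII, -3.99 to -3.66 on low sodium and -3.84 to -3.26 on normal sodium, and their part in the Uchl1 values was not tested.

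**Figure D2:**
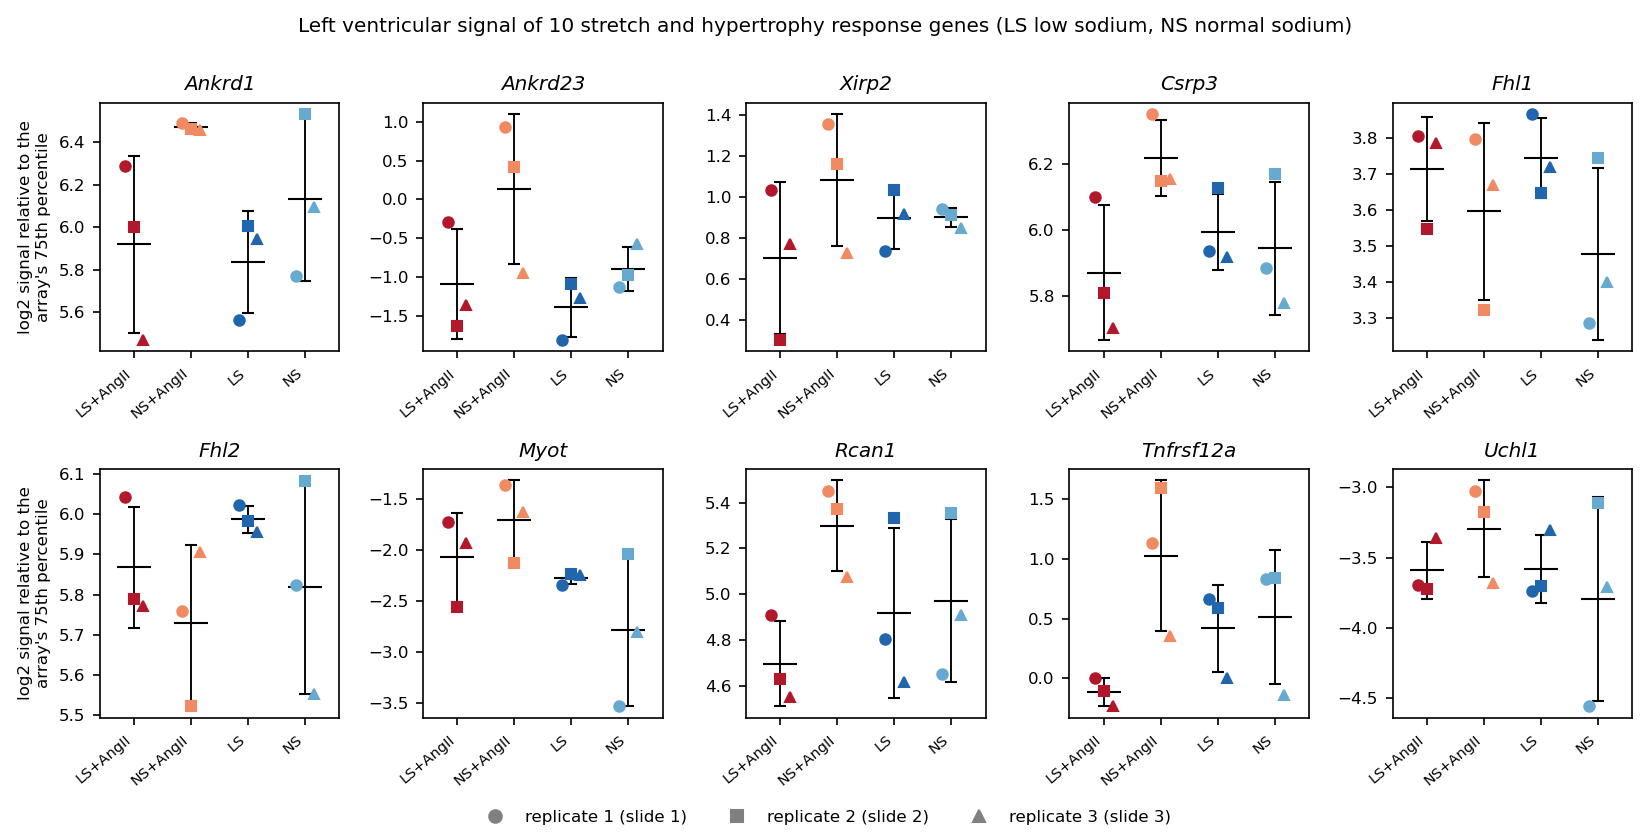
Level of each gene (brightest probe) on every array, as log2 signal relative to the 75th percentile of the array; symbols are arrays by replicate number and slide, and bars are the group mean ± SD (n = 3). Scales differ between panels. Ankrd1, Rcan1, Csrp3 and Tnfrsf12a show no overlap between low sodium with AngII and normal sodium with AngII.

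The AngII comparison on normal sodium asked what the infusion does without salt restriction. Values were above 0 for 9 of 10 genes, all but Fhl2 (-0.09 ± 0.15), with a median of 0.33 against 0.02 over all probes, 54.2% of which were above 0. With each gene's brightest probe, 0 of 10 genes had groups that did not overlap, against 7.44% of all probes on the higher side. Myot was the 1 of 10 genes with an unadjusted limma p under 0.05, where 4.24% of all probes were higher at that p. Ankrd23, at 0.05003, lay just above that threshold. Limma called 0 probes here, with 1453 of 20020 at an unadjusted p under 0.05. This comparison and that of the infused diets share the 3 normal sodium with AngII arrays.

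AngII on low sodium gave smaller values of mixed sign. Of the 10 genes 3 lay above 0 and 7 below, where 55.0% of all probes lay below. The median was -0.08 against -0.02 over all probes, and the members' range was -0.53 to 0.29. Only Tnfrsf12a, described above, had groups that did not overlap, that is 1 of 10 on the lower side against 3.04% of all probes. No member had an unadjusted p under 0.05 in limma, where 342 of 20020 probes did (0.829% on the lower side).

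**Figure D3:**
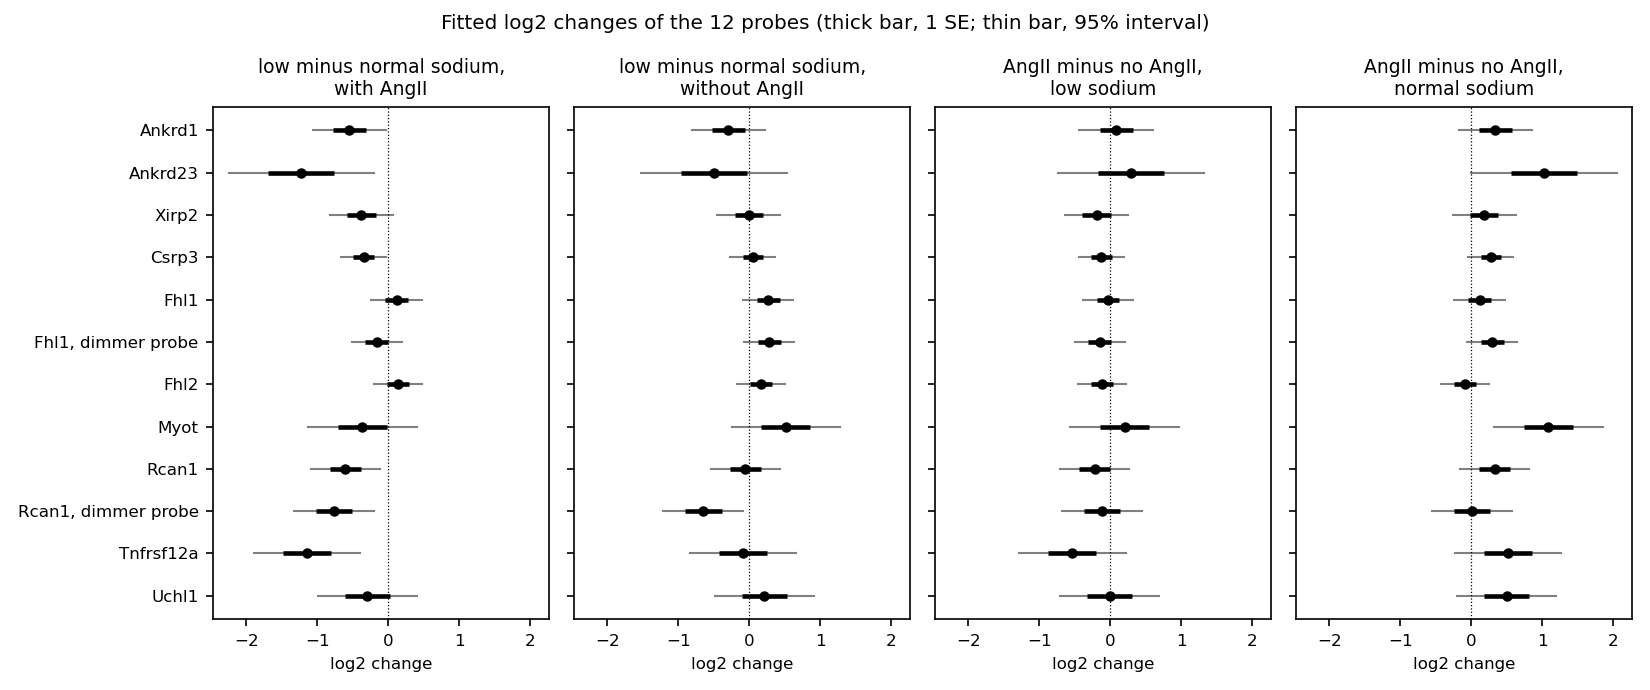
Fitted log2 differences of the 12 probes in 4 comparisons, with the limma standard error as a thick bar and the 95% interval as a thin bar. Tnfrsf12a, Rcan1, Ankrd23, Ankrd1 and Csrp3 lie below 0 between the infused diets with 95% intervals that do not reach 0. The same holds for the dimmer Rcan1 probe between the uninfused diets. Myot lies above 0 for AngII on normal sodium with an interval that does not reach 0. No adjusted p is under 0.05.

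Low against normal sodium without infusion split the genes evenly. In that comparison 5 lay above and 5 below 0, with a median of 0.02 and a range of -0.49 to 0.52, and 0 of 10 had groups that did not overlap (5.87% of all probes on the lower side and 5.01% on the higher). Myot was at 0.52 ± 0.35 (0.15 without normal sodium replicate 1, 0.89 without replicate 2, 0.25 after normexp and 0.30 in the authors' matrix). Fhl1 was at 0.27 ± 0.16 with the brighter probe (0.17 without normal sodium replicate 1 and 0.40 without replicate 2) and at 0.28 with the dimmer (0.14 without low sodium replicate 3). Of all probes 1407 had an unadjusted p under 0.05.

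Averaged over infused and uninfused rats, the low sodium effect was below 0 in 7 of 10 genes, against 55.1% of all probes. The median was -0.17 for the members and -0.02 over all probes. Ankrd23 was at -0.86 ± 0.33 (adjusted p = 0.317), Tnfrsf12a at -0.62 ± 0.24 (adjusted p = 0.324) and Ankrd1 at -0.42 ± 0.16 (adjusted p = 0.326), so 3 of 10 genes had an unadjusted p under 0.05 on the lower side against 8.47% of all probes. The dimmer Rcan1 probe had the smallest adjusted p of any member in any comparison (-0.71 ± 0.18, adjusted p = 0.166), while the brighter was at -0.33 ± 0.16 (adjusted p = 0.425; -0.52 as the mean of the probes). The AngII effect averaged over diets was 0.64 ± 0.24 for Myot (adjusted p = 1.00) and 0.66 ± 0.33 for Ankrd23, with 1 of 10 genes at an unadjusted p under 0.05 on the higher side against 1.82% of all probes.

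The interaction subtracts the AngII difference of the normal sodium diet from that of the low sodium diet. It was below 0 for 10 of 10 genes, and for 9 to 10 when single arrays were left out. Fhl2, at -0.03 ± 0.22, was nearest to 0. The median was -0.45 against -0.04 over all probes, 55.9% of which were below 0. Myot was at -0.88 ± 0.49 (-0.51 without normal sodium replicate 1 and after normexp), Rcan1 at -0.55 ± 0.31 (-0.34 without low sodium replicate 2) and Csrp3 at -0.40 ± 0.20, each with an adjusted p of 0.857. No member had an unadjusted p under 0.05 here, against 2.96% of all probes on the lower side and 1014 of 20020 in all. Members measured on the same arrays are not replicates of one another, and the interaction uses the same arrays as the comparisons above.

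**Figure D4:**
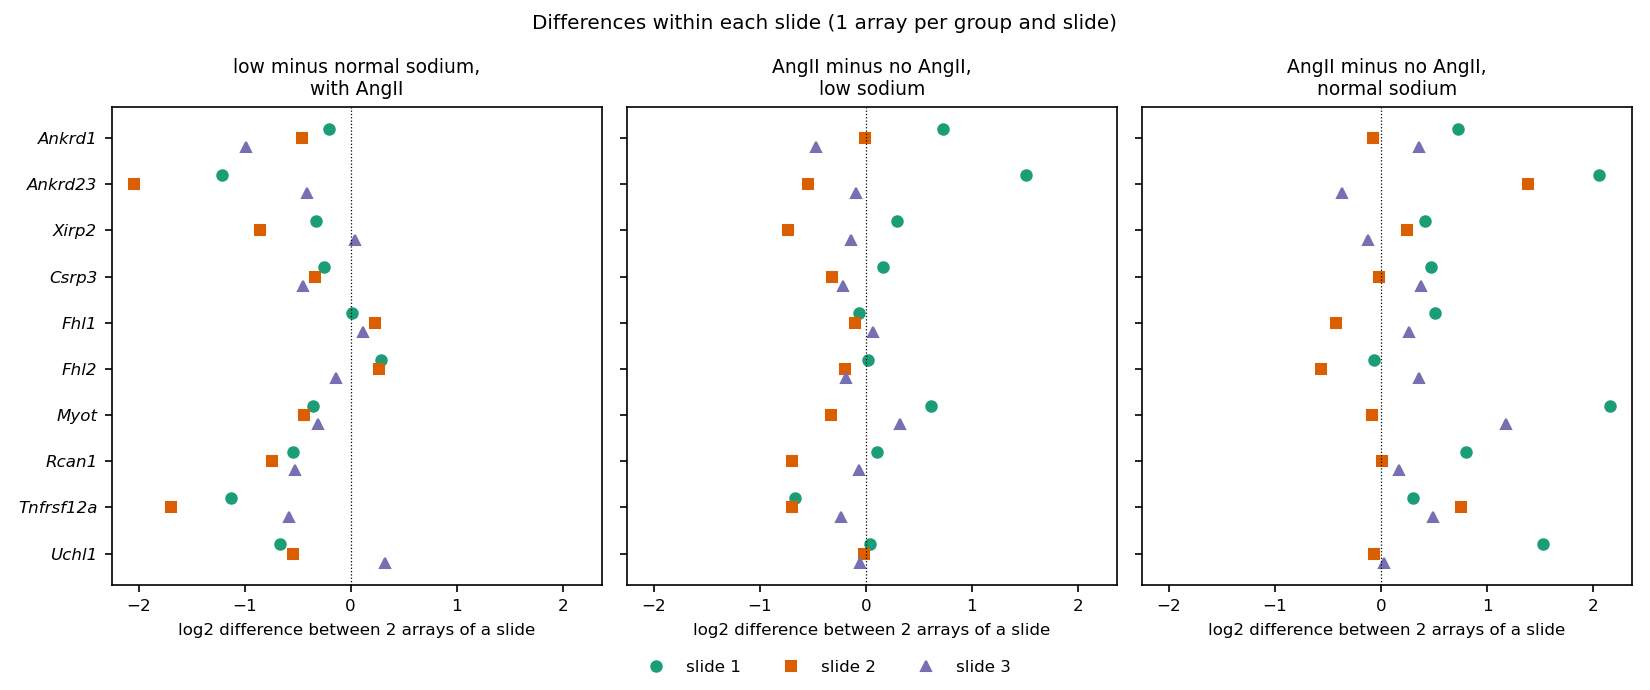
Differences between 2 arrays of the same slide, in log2 units, for each gene (brightest probe) in 3 comparisons; symbols are the 3 slides. Tnfrsf12a is below 0 on every slide between the infused diets and for AngII on low sodium, and above 0 on every slide for AngII on normal sodium.

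Summed signals of some other cell types did not overlap between the infused diets either. Between the infused diets the summed signal of 7 of 7 fibroblast markers, in multiples of the array's 75th percentile, was 52.5 to 56.7 on low sodium with AngII and 65.7 to 75.4 on normal sodium with AngII, and that of 5 of 5 macrophage markers was 0.784 to 0.825 on low sodium with AngII and 1.13 to 1.27 on normal sodium with AngII. The 2 measured red cell markers of 3 summed to 65.9 to 79.2 on low sodium with AngII and 92.0 to 109.9 on normal sodium with AngII. The summed signal of the 5 endothelial markers overlapped, at 17.4 to 19.9 on low sodium with AngII and 19.1 to 21.2 on normal sodium with AngII, but their mean log2 level did not, at 0.697 to 0.802 on low sodium with AngII and 1.086 to 1.103 on normal sodium with AngII. The summed signal of the 7 ventricular markers overlapped too, at 1000.1 to 1266 on low sodium with AngII and 1197 to 1304 on normal sodium with AngII. For AngII on normal sodium, the red cell markers had a mean log2 level of 4.15 to 4.40 with AngII and 2.84 to 3.47 without, the smooth muscle markers (5 of 5) one of -2.14 to -1.24 with AngII and -3.15 to -2.36 without, and the macrophage markers one of -2.46 to -2.38 with AngII and -2.78 to -2.48 without. The summed signal of the red cell markers was 92.0 to 109.9 with AngII and 51.9 to 67.6 without, and that of the smooth muscle markers 3.68 to 6.18 with AngII and 2.47 to 3.63 without, while that of the macrophage markers overlapped (1.13 to 1.27 with AngII and 0.960 to 1.20 without). Between the uninfused diets the summed signal was 48.7 to 50.6 on low sodium and 60.5 to 68.3 on normal sodium for fibroblast markers, 0.594 to 0.918 on low sodium and 0.960 to 1.20 on normal sodium for macrophage markers, and 4.13 to 4.84 on low sodium and 2.47 to 3.63 on normal sodium for smooth muscle markers. For AngII on low sodium, fibroblast markers summed to 52.5 to 56.7 with AngII and 48.7 to 50.6 without, though their mean log2 level overlapped. The part of these markers in the members' values was not tested.

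Established hypertrophy genes give a scale for these values. Nppb, the B-type natriuretic peptide, differed by -1.44 ± 0.35 between the infused diets (adjusted p = 0.293) and by 0.81 ± 0.35 with AngII on normal sodium (adjusted p = 0.669). Nppa, the atrial peptide, was at -1.85 ± 0.82 (adjusted p = 0.444) and 0.99 ± 0.82 (adjusted p = 0.770) in the same comparisons. Skeletal actin (Acta1) stood at -0.37 ± 0.31 and 0.53 ± 0.31, and the fetal myosin Myh7 at -0.23 ± 0.14 and 0.04 ± 0.14. Between the uninfused diets, where the members split evenly, Nppa was at -1.71 ± 0.82, Nppb at -0.83 ± 0.35, Acta1 at -0.27 ± 0.31 and Myh7 at -0.15 ± 0.14. The interaction was -0.14 ± 1.16 for Nppa, -0.61 ± 0.50 for Nppb, -0.10 ± 0.43 for Acta1 and -0.07 ± 0.20 for Myh7. Nppa is also an atrial marker, and the atrial markers Sln and Myl7 varied widely between arrays.

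The other genes of the pathways were read from lists, and 0 members of any list rose or fell in any of the comparisons. Between the infused diets, Z-disc and titin partners lay below 0 in 15 of 20 measured genes of 28 listed, with a median of -0.16. Zyx (zyxin, a focal adhesion and Z-disc protein) was at -0.57 ± 0.16 (adjusted p = 0.293) and Lmcd1, a LIM protein that binds calcineurin, at -0.36 ± 0.18 (adjusted p = 0.494). Genes of integrin, SRF and YAP signalling lay below 0 in 12 of 18 (22 listed), with a median of -0.25, but Srf, the transcription factor itself, was at 0.45 ± 0.16 (adjusted p = 0.374) and the integrin-linked adaptor Parva at -0.31 ± 0.11 (adjusted p = 0.342). Over all probes the median in this comparison was -0.05, and 58.2% lay below 0.

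Rcan1's own pathway covers calcineurin, NFAT and the transcription factors they work with. Between the infused diets 14 of its 23 measured genes (26 listed) lay below 0. That share is close to the 58.2% of all probes below 0, and the median was -0.12 against -0.05. The cardiac factor Gata4 was at -0.40 ± 0.17 (adjusted p = 0.427) and the NFAT kinase Dyrk1a at -0.30 ± 0.14 (adjusted p = 0.467). AngII on normal sodium put 18 of these 23 genes above 0 (median 0.13), where 54.2% of all probes lay above 0 (median 0.02). Among the 18 were the calcineurin subunit Ppp3r1 at 0.36 ± 0.14 and Dyrk1a at 0.36 ± 0.14 (adjusted p = 0.669 for both). Low sodium without infusion is set against the same normal sodium arrays. It also put 18 of 23 above 0 (median 0.12), against 48.3% of all probes (median -0.009). Ppp3r1 was at 0.47 ± 0.14 there (adjusted p = 0.615). AngII on low sodium put 4 of 23 above 0 (median -0.07), with Cib1, which in mice anchors calcineurin at the cell membrane, at 0.17 ± 0.10 and Gsk3b, a kinase that opposes NFAT, at -0.19 ± 0.11 (adjusted p = 1.00 for both).

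The pathway downstream of Tnfrsf12a is TWEAK signalling to NF-kappaB. Between the infused diets 10 of its 11 measured genes (15 listed) lay below 0, with a median of -0.09. Over all probes 58.2% lay below 0, with a median of -0.05, and median scaling shifted that value by 0.10. The list median differed from it by less than that shift. The adaptor Traf1 was at -0.43 ± 0.16 (adjusted p = 0.368) and the NF-kappaB subunit Rela at -0.35 ± 0.15 (adjusted p = 0.428). With AngII on normal sodium 8 of 11 were above 0 (median 0.10), against 54.2% of all probes (median 0.02), and Traf1 was at 0.37 ± 0.16 (adjusted p = 0.669). With AngII on low sodium 2 of 11 were above 0 (median -0.10). Uchl1's relatives and the muscle ubiquitin ligases (7 measured of 8) lay above 0 in 5 of 7 between the infused diets, against 41.8% of all probes. Their median was 0.11, and the atrophy ligase Trim63 was at 0.24 ± 0.14 (adjusted p = 0.552).

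Over the 12 arrays the members fell into patterns that were partly shared. Pearson's r was 0.87 between Rcan1 and Csrp3, 0.80 between Ankrd23 and Xirp2, 0.79 between Ankrd1 and Csrp3, 0.75 between Uchl1 and Myot and 0.71 between Rcan1 and Tnfrsf12a. Fhl1 and Fhl2 were at 0.68 with each other, while Fhl2 was at -0.04 with Rcan1 and -0.45 with Ankrd23. Probes of the same gene were at 0.63 for Rcan1 and 0.55 for Fhl1. These are descriptions over arrays that share groups, slides and a scaling factor.

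By the same measure, searched over 11157 other genes, the closest pattern to Ankrd23 was that of Tln1 (talin, which links integrins to actin; r = 0.92) and to Tnfrsf12a that of Lats1 (a kinase that inhibits YAP; r = 0.90), both on the list of mechanosensing genes. Closest to Fhl2 was Smyd1, a muscle methyltransferase (r = 0.92), and closest to Ankrd1 was Rtn4rl2 (r = 0.91). Csrp3 and Rcan1 shared Clec2d2l1 as the closest gene (r = 0.95 and 0.90). Uchl1 was closest to Abcb1b (r = 0.94), Fhl1 to Shroom3 (r = 0.91), Xirp2 to Magea13 (r = 0.89) and Myot to Mcmdc2 (r = 0.89), with the smooth muscle gene Cnn1 among the 3 closest to Myot (r = 0.88). High values are found for any gene when so many are searched over 12 arrays.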

How the data were processed

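Total RNA of left ventricles was labelled with Cy3 and read on 12 Agilent arrays. Per the file headers, the deposited scanner values are signal intensities that Feature Extraction 10.7.3.1 wrote after subtracting background and detrending each array. The submitters' processing notes instead name Agilent Feature Extraction 11.0.1.1, R 3.3.04 and limma. Flags in the deposited files (0 or 1) mark a spot as well above background, saturated, of uneven brightness or an outlier. The authors' deposited matrix holds log2 values of 20438 probes, with a normalization that is not given in the sources used here. Its columns followed the scanner signal of their arrays (Spearman's rho 0.996 to 0.999 across probes, which are not independent), and it served as an alternative.

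Control spots (1377) and outlier-flagged spots (296 to 421 per array) were left out, and replicate spots of a probe were averaged. From each log2 processed signal the log2 of the 75th percentile was subtracted, taken over the 42877 non-control spots of its array. Tests used the 20020 probes for which every array of some group (3 arrays) had at least 0.5 of the probe's spots well above background. Targets were named through RefSeq (GRCr8, names only), which gave 18758 of 30367 probes 1 symbol and none several. Each gene takes the value of its brightest tested probe, and other probes are given beside it.

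Group means were fitted over all 12 arrays with limma 3.58.1 in R 4.3.3 (with the package data.table, version 1.17.8), with p-values adjusted by Benjamini-Hochberg over all tested probes at 0.05. The fit was tested on simulated data. The number of arrays limits the precision. The members and the gene lists were chosen with earlier results of these data known. All members were named. From each list the 2 genes with the smallest p in a comparison could be named where none passed, as could Nppa, Nppb, Myh7 and Acta1, and for each member the 3 genes with the most similar pattern.

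The headers show 3 slides, each with 1 array of every group under 1 replicate number and with each group at a fixed position; group and position cannot be told apart. After removing group means, same-numbered arrays correlated above 0.1 in 17 of 18 pairs (0.0469 to 0.432, median 0.22), against a median of -0.18 between numbers. The number and the slide coincide, and what else same-numbered arrays share is not given in the sources used here. No 2 arrays held identical values. Alternatives were other scalings (median, quantile, each probe counted once, the last added after seeing the data), normexp background correction, other filters, array weights, the mean of a gene's probes, the compared groups alone, the replicate block and leaving out each array.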

Additional observations from a re-analysis of the deposited data

Results flagged for a closer look

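The AngII difference of Tnfrsf12a had opposite signs on the diets on every slide: below 0 on low sodium (-0.66, -0.70 and -0.23) and above 0 on normal sodium (0.30, 0.76 and 0.49). The difference between the diets was -1.05 ± 0.48 on the log2 scale, with an adjusted p of 0.857 for the limma interaction, which is the test of this difference. The sign pattern over slides was not itself tested, and 568 of 20020 probes (2.84%) showed it in 1 direction or the other. Leaving out single arrays moved the value between -1.39 and -0.72.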

How the results depend on the processing

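No member was called under any of the 23 alternatives, 11 of which left out no array, and adjusted p ranged from 0.0862 to 1.00. Of 989 single-gene values over 44 results, 363 equalled the reported one within 1e-06 by construction: filters, the balanced block, fitting the compared groups alone, leaving out an array of another group and averaging a lone probe cannot move a difference of group means. The 44 results were every member probe for AngII on normal sodium and between the infused diets. From the other comparisons they were only member probes with an unadjusted limma p under 0.2. Of the 626 values that could move, 615 kept their sign and 11 did not. The reversals concern AngII on normal sodium for Fhl2 (-0.22 to 0.042 leaving out single arrays) and for Rcan1, dimmer probe (-0.0212 with each probe counted once in the percentile, -0.049 with median scaling, -0.027 with quantile normalization and -0.13 to 0.21 leaving out single arrays), and the infused diets for Fhl1 (-0.023 as the mean of its probes and -0.019 to 0.22 leaving out single arrays). The causes were not tested. Member values with a larger p in the other comparisons were not followed singly. Some of those changed sign too, since the counts of members below 0 given below moved.

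With the replicate block, which follows the slides, 0 members and 0 of all probes were called in each of the 7 contrasts and no call changed. Tnfrsf12a between the infused diets stayed at -1.14 (adjusted p = 0.226).

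Probes called over the whole array moved from 0. For AngII on normal sodium they numbered 3 among probes above background on 12 arrays, 5 in the authors' matrix, 1 with probes averaged per gene, 6 after normexp and 0 to 9 leaving out single arrays (9 without low sodium replicate 1). For AngII on low sodium there were 2 with only the compared groups. Between the infused diets there were 2 above background on 12 arrays, 8 with array weights, 1 in the authors' matrix, 1 with probes averaged per gene, 4 with median scaling, 3 after normexp, 1 with quantile normalization and 0 to 3 leaving out single arrays. Between the uninfused diets there were 0 to 1 leaving out single arrays. For the mean low sodium effect there were 81 with array weights, 1 without a filter on dim probes, 4 after normexp and 0 to 20 leaving out single arrays (20 without normal sodium replicate 2).

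Members below 0 numbered 0 to 1 for AngII on normal sodium, 4 to 8 for AngII on low sodium (4 without low sodium with AngII replicate 2), 2 to 6 between the uninfused diets (2 without normal sodium replicate 2) and 1 to 4 for the mean AngII effect leaving out single arrays, and 1 for the last with quantile normalization. For the interaction they numbered 9 to 10, both leaving out single arrays and under the other alternatives. The standard error of a difference between 2 groups ranged from 0.14 for Csrp3 to 0.46 for Ankrd23.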
